A study of Mus musculus with 4 samples.

Results

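Circulating T cells of a library from PDOX treatment were compared, gene by gene, with those of an untreated library. PDOX stands for blocking anti-PD-L1 antibody together with agonistic anti-OX40 antibody and CpG. Droplets were taken as T cells when 200 to 2900 genes were detected, mitochondrial, ribosomal protein and hemoglobin genes not counted, and at least 1 UMI (a count of 1 captured mRNA molecule) came from Cd3d, Cd3e or Cd3g, the CD3 chains of the T cell receptor complex. The rule kept 1340 of 1538 PDOX barcodes and 697 of 862 untreated barcodes, that is 2037 of the 5434 barcodes in the series.

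All mice were female C57BL/6, 6 to 8 weeks old at the start, and carried subcutaneous MC-38 colorectal tumors. Blood was drawn on day 18 after tumor injection, and T cells were enriched by depletion of other cells before droplet single-cell RNA sequencing. PDOX treatment was anti-OX40 and CpG near the tumor on day 7 and anti-PD-L1 on days 10, 13 and 17, whereas untreated mice received none of these. An anti-PD-L1 library (1317 T cells) and an anti-OX40/CpG library (1481 T cells), each on the schedule it had in the combination, are used only for comparison. Each condition is 1 library, from a number of mice that is not given in the sources used here, so animal, library and treatment cannot be told apart, no test of the treatment is possible, and every interval below is an exact 95% interval for counting error only.

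PD-L1 is the ligand of the inhibitory receptor PD-1, and blocking it releases a brake on T cells that already recognise antigen. OX40, encoded by Tnfrsf4, is a costimulatory receptor of activated T cells, and CpG oligonucleotides stimulate innate cells through TLR9. Naive T cells circulate between blood and lymph nodes with the homing receptor CCR7 and the transcription factors TCF1 and LEF1, and on activation they become effector cells with cytolytic granules, NK-type receptors and receptors for inflamed tissue.

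Levels are UMIs per 10000, with mitochondrial, ribosomal protein and hemoglobin genes left out of the totals, summed over the cells of a group. The T cells gave 2329843 such UMIs in PDOX and 1157478 in the untreated library, with similar medians per cell of 1604 and 1568. CD8 T cells had a UMI of Cd8a or Cd8b1 and none of Cd4, and CD4 T cells the opposite. The 6 defining T cell markers tested differed by less than 2-fold in all 3 populations, with median ratios of 1.19 in all T cells, 1.19 in CD8 T cells and 1.32 in CD4 T cells. At the edge of the rule, 91 PDOX and 54 untreated T cells had exactly 1 CD3 UMI, and 166 and 86 droplets within the gene limits had none. Xist, the transcript of the inactive X chromosome in female cells, was at 12.7 and 12.9 in all T cells, and Ddx3y, from the Y chromosome, had 0 UMIs in both.

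The PDOX library held a larger part of CD4 T cells. CD4 T cells were 301 of 1340, or 22.5% (20.3 to 24.8), in PDOX and 102 of 697, or 14.6% (12.1 to 17.5), in the untreated library. CD8 T cells were 456, or 34.0% (31.5 to 36.6), and 324, or 46.5% (42.7 to 50.3). The ratio of CD4 to CD8 cells was thus 0.660 in PDOX and 0.315 in the untreated library, against 0.302 with anti-PD-L1 and 0.392 with anti-OX40/CpG. A further 509 PDOX and 245 untreated T cells had no UMI of either coreceptor, so T cells of either lineage without such a UMI count in the denominator but in neither lineage. CD8 cells were called by Cd8a or Cd8b1 and CD4 cells by Cd4 alone, so the ratio depends on how well each was detected. The number of UMIs is what limits the CD4 comparison, since 1 UMI stands for a level of 0.0573 in the untreated CD4 cells and 0.0181 in the PDOX CD4 cells, against 0.0184 and 0.0117 in CD8 cells.

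Some droplets that met the CD3 rule also held genes of other cell types, and they were not evenly spread between the libraries. By counts of marker UMIs, 34 untreated droplets with 11.4% of the T cell UMIs and 43 PDOX droplets with 5.78% carried squamous epithelial, B cell, monocyte, neutrophil, platelet, basophil or NK cell genes. In CD4 T cells these were 4 untreated droplets with 15.6% of the UMIs and 2 PDOX droplets with 0.784%. In CD8 T cells they were 8 droplets with 4.13% and 8 with 3.65%. Ratios are therefore also given without these droplets for T cell genes wherever leaving them out moved the value by more than 1.5 times. The droplets were picked by marker UMIs, so lower levels of such markers without them follow in part from the rule.

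Most genes differed by less than 2-fold between the libraries, with median ratios over all tested genes of 1.001 in all T cells, 0.974 in CD8 and 1.04 in CD4 cells. Of 3220 genes with a mean level of at least 0.5 in all T cells, 59 (1.83%) were at least 2-fold higher in PDOX and 61 (1.89%) at least 2-fold lower. Without the droplets of other cell types it was 69 (2.15%) and 52 (1.62%). In CD8 T cells 83 of 3135 genes (2.65%) were higher and 83 (2.65%) lower, and 83 (2.64%) and 78 (2.48%) without those droplets. In CD4 T cells 173 of 3262 (5.3%) were higher and 182 (5.58%) lower, and 190 (5.75%) and 194 (5.87%) without them. These percentages are the background against which the counts of each gene group below are read. A group is counted over its listed members that reached the level of 0.5, and a gene can reach it through 1 library alone, so its count and median describe the group and are no test.

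The balance of higher and lower genes depended on what the totals contained, and ribosomal protein genes made up 34.0% of the T cell UMIs in PDOX and 39.8% in the untreated library. Of the genes past 2-fold, 49.2% were higher in all T cells, 50.0% in CD8 and 48.7% in CD4 cells. With every gene kept in the totals fewer genes reached the level limit (2021, 1890 and 2159), the split became 51 higher to 24 lower (68.0%), 81 to 25 (76.4%) and 125 to 81 (60.7%), and the median log2 ratio moved up by 0.18, 0.25 and 0.16. Over the genes tested before, it became 77 to 42 (64.7%), 134 to 49 (73.2%) and 239 to 143 (62.6%). In CD8 cells TMM scaling gave 113 to 61 (64.9%) and DESeq2 size factors 112 to 64 (63.6%), with shifts of 0.12 and 0.11. The ratios that follow are relative to the totals without these genes.

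**Figure D1:**
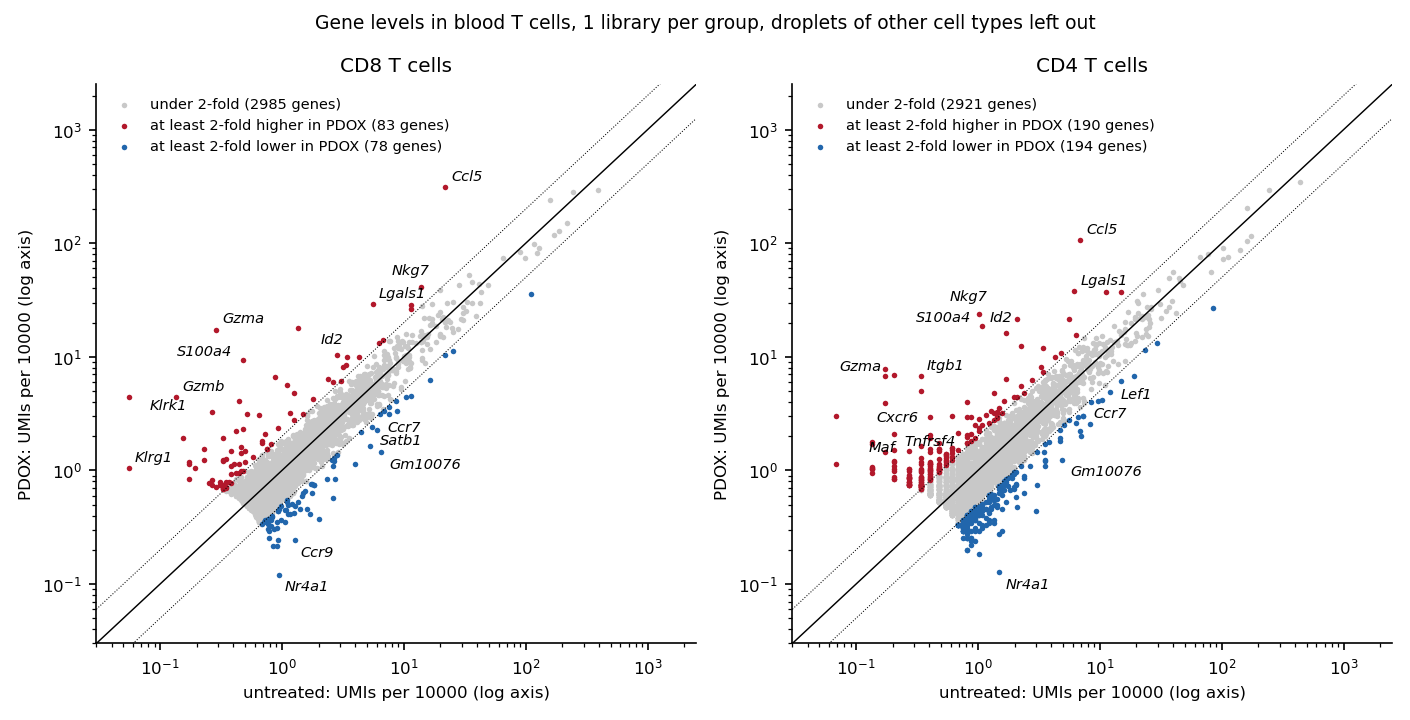
Level of each gene in the PDOX library (vertical) against the untreated library (horizontal), in UMIs per 10000 on log axes, for CD8 T cells and CD4 T cells without droplets of other cell types. Red points are at least 2-fold higher in PDOX (83 and 190 genes), blue points at least 2-fold lower (78 and 194), grey points under 2-fold, the solid line marks equal levels, the dotted lines 2-fold, and genes at 0 UMIs are drawn at the floor of 3 UMIs.

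Genes of cytolytic granules were higher in PDOX in both lineages. Of 15 cytotoxic genes listed, 11 were tested in CD8 T cells and 6 of them were at least 2-fold higher and 0 lower, with a median ratio of 2.29, and of 8 tested in CD4 T cells 3 were higher and 0 lower, with a median of 1.73, against medians over all genes of 0.974 and 1.04. Granzyme A (Gzma), a serine protease of the granules, was at 17.7 in PDOX CD8 cells and 0.700 in untreated CD8 cells. That is a ratio of 25.3 (18.3 to 35.8), and 60.2 without the droplets of other types, because 1 untreated droplet held 60.5% of its UMIs. Granzyme B (Gzmb), the granzyme that triggers caspases in target cells, was at 4.37 and 0.332 in CD8 cells, a ratio of 13.2 (8.22 to 22.5) and 33.0 without those droplets. Granzyme K (Gzmk) had 192 UMIs in PDOX CD8 cells and 1 UMI in untreated CD8 cells, a ratio of 121 (21.5 to 4820).

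The granule genes were not uniform. Nkg7, a membrane protein of cytolytic granules, was already present in untreated CD8 cells, at 13.7 against 40.0 in PDOX, a ratio of 2.92 (2.69 to 3.16). In CD4 cells Nkg7 was at 0.860 in the untreated library and 24.0 in PDOX, a ratio of 27.9 (16.8 to 50.0). Cathepsin D (Ctsd), a lysosomal protease, was 2.65-fold higher (2.24 to 3.14) in CD8 and 2.36-fold higher (1.78 to 3.19) in CD4 cells. Perforin (Prf1), which forms the pores that granzymes use, was too low to be tested, with 23 UMIs in PDOX and 9 in untreated CD8 cells and a ratio of 1.62 (0.720 to 3.97). The 2 lineages also differed in which granzymes they held: PDOX CD4 cells had Gzma at 6.91 against 3 UMIs in the untreated library (ratio 40.2, 13.6 to 196), but Gzmb at 0.687 against 0.401 (ratio 1.71, 0.755 to 4.54).

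The chemokine CCL5, a secreted attractant stored by memory and effector T cells, showed the widest gap in level of the genes compared in either lineage. Ccl5 was at 306 in PDOX and 23.6 in untreated CD8 cells, which is 12.96-fold higher (12.2 to 13.7). The CD4 levels were 108 and 5.85, a ratio of 18.4 (15.1 to 22.6), with 61.8% of the untreated UMIs in 1 cell. Of 16 chemokine and cytokine genes listed 4 were tested, and 1 was past 2-fold in each lineage (Ccl5), with medians of 1.19 and 1.13. In CD8 cells 2 of 4 were higher without the droplets of other types, with a median of 2.47, the other being Ccl4 at 1.44 and 1.105 with them and a ratio of 3.84 (2.38 to 6.504) without. Ifng, the interferon gamma gene, was under the level limit, with 122 UMIs in all PDOX T cells and 10 in all untreated T cells, a ratio of 6.06 (3.19 to 12.96).

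NK-type receptors followed the granule genes in CD8 cells. Of 15 listed, 5 were tested in CD8 cells and 4 of them were at least 2-fold higher and 0 lower, with a median ratio of 8.85, and of 3 tested in CD4 cells 2 were higher and 0 lower, with a median of 2.80. Klrk1, which encodes the activating receptor NKG2D, was at 3.26 and 0.368 in CD8 cells, a ratio of 8.85 (5.62 to 14.7), and 3.96-fold higher (2.01 to 8.88) in CD4 cells. Klrc1, the inhibitory receptor NKG2A, was at 1.90 and 0.184 in CD8 cells, a ratio of 10.3 (5.46 to 21.9). Klrg1, an inhibitory receptor of terminal effector cells, had 90 UMIs in PDOX and 3 in untreated CD8 cells, a ratio of 19.0 (6.29 to 93.7), with 0 untreated UMIs left without the droplets of other types, while in CD4 cells it was at 0.723 and 0.860, a ratio of 0.841 (0.455 to 1.64).

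Several transcription factors of effector cells were higher in PDOX in each lineage. Of 14 listed, 9 were tested in CD4 cells and 7 of them were at least 2-fold higher, with a median ratio of 3.09 (4.83 without the droplets of other types), and of 7 tested in CD8 cells 3 were higher, with a median of 1.35, and 0 were lower in either. Id2, an inhibitor of E-protein transcription factors, was at 16.3 and 1.95 in CD4 cells (ratio 8.38, 5.95 to 12.2), and at 10.5 and 2.87 in CD8 cells, a ratio of 3.64 (3.07 to 4.34). Bhlhe40 had 83 UMIs in PDOX and 0 in untreated CD4 cells. Against a floor of 3 UMIs its ratio is 8.73, and the lower limit of its exact interval is 6.94. Maf, a regulator of helper cell cytokines, was 6.83-fold higher (2.24 to 34.0) in CD4 cells on 65 against 3 UMIs, and Gata3, the factor of type 2 helper cells, 3.09-fold higher (1.78 to 5.79).

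Rora and Zeb2 differed in both lineages. Rora, a nuclear receptor, was 6.75-fold higher (3.41 to 15.2) in CD8 and 5.68-fold higher (2.35 to 17.9) in CD4 cells. Zeb2, a repressor linked to terminal CD8 effectors, was 3.88-fold higher (2.44 to 6.49) in CD8 cells and 2.61-fold (1.19 to 6.79) in CD4 cells, and 6.71-fold and 7.51-fold without the droplets of other types. The T-box factors were too low to be tested: Tbx21 (T-bet) had 37 UMIs in PDOX and 3 in untreated CD8 cells, and Eomes had 53 and 9.

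Receptors for inflamed tissue were higher in PDOX and the gut-homing receptor was lower. Of 14 chemokine and lipid receptors of homing listed, 6 were tested in CD8 cells and 4 of them were at least 2-fold higher and 1 lower, with a median ratio of 4.04, and of 4 tested in CD4 cells 3 were higher and 0 lower, with a median of 3.18 (5.27 without the droplets of other types). Cxcr3, the receptor for interferon-induced chemokines, was at 2.14 and 0.405 in CD8 cells (ratio 5.29, 3.39 to 8.65) and at 2.93 and 0.803 in CD4 cells (ratio 3.65, 2.11 to 6.83). Cxcr6 had 214 UMIs in PDOX and 0 in untreated CD4 cells, a ratio of 22.5 against the floor of 3 UMIs (lower limit 18.1). In CD8 cells Cxcr6 was 2.93-fold higher (2.05 to 4.28). Cx3cr1, the fractalkine receptor of circulating effector cells, had 89 and 3 UMIs in CD8 cells, a ratio of 18.8 (6.21 to 92.7), and 53.5 without the droplets of other types, which left 1 untreated UMI. Ccr9, the receptor for a chemokine of the small intestine, was at 0.233 in PDOX and 1.22 in untreated CD8 cells, a ratio of 0.192 (0.110 to 0.320).

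Among adhesion genes the integrin beta 1 chain stood apart. Itgb1 was at 6.75 in PDOX and 0.344 in untreated CD4 cells, a ratio of 19.6 (8.93 to 53.8), and at 3.12 and 0.626 in CD8 cells, a ratio of 4.98 (3.48 to 7.35). Its partner Itga4 was 1.73-fold higher (1.38 to 2.17) in CD8 and 1.64-fold higher (1.15 to 2.38) in CD4 cells. Itga6, another alpha chain, was at 0.579 and 1.78 in CD4 cells (ratio 0.326, 0.192 to 0.552). Of 15 integrin and adhesion genes listed, 2 of 10 tested in CD8 cells and 3 of 11 in CD4 cells were at least 2-fold higher and 0 and 1 lower, with medians of 1.51 and 1.64, and without the droplets of other types 4 and 4 were higher. Cd48, the ligand of the receptor 2B4, was among the higher genes in both, at ratios of 2.42 (2.01 to 2.93) and 2.32 (1.71 to 3.22).

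Cytoskeletal and calcium-binding genes of activated T cells were higher in PDOX, and more of them passed 2-fold once the droplets of other types were left out. Of 23 S100, galectin, annexin and cytoskeletal genes listed, 9 of 22 tested in CD8 cells were at least 2-fold higher, with a median ratio of 1.97, and 7 of 23 in CD4 cells, with a median of 1.41, and 0 were lower in either. Without the droplets of other types it was 12 of 22 with a median of 2.11 and 15 of 23 with a median of 2.48. S100a4 was at 18.7 and 3.27 in CD4 cells (ratio 5.71, 4.37 to 7.59), a ratio that became 17.3 without those droplets. In CD8 cells S100a4 was at 9.34 and 1.23, a ratio of 7.57 (5.89 to 9.86) that became 19.6. Lgals1, the secreted lectin galectin-1, was at 29.0 and 6.999 in CD8 cells (ratio 4.15, 3.72 to 4.63) and at 38.2 and 7.28 in CD4 cells (ratio 5.24, 4.38 to 6.32). S100a6 and Anxa2 in CD4 cells had ratios of 1.56 (1.36 to 1.81) and 0.613 (0.434 to 0.873), and 10.2 and 13.2 (3.55 to 110) without those droplets, which took the untreated UMIs from 239 to 31 and from 52 to 2.

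Ly6 and Ifitm genes, small membrane proteins often induced by interferon, depended on the same droplets. Ly6a (Sca-1) was at 8.33 and 1.07 in CD8 cells, a ratio of 7.79 (5.96 to 10.4), or 5.16 without the droplets of other types. In CD4 cells Ly6a was at 11.9 and 12.4, a ratio of 0.962 (0.824 to 1.13), but 1 untreated droplet held 75.9% of its UMIs and without such droplets the levels were 12.0 and 3.40, a ratio of 3.54. Ifitm1 had 492 UMIs in 6.80% of PDOX CD8 cells and 0 in untreated CD8 cells, with 26.2% of its UMIs in 1 cell. Against the floor of 3 UMIs its ratio was 104 (lower limit 84.0). Ifitm3 ran the other way in CD8 cells, with a ratio of 0.160 (0.0965 to 0.255) that became 1.53 without those droplets. Of the 10 Ly6 and Ifitm genes listed, 3 of 7 tested in CD8 and 1 of 7 in CD4 cells were at least 2-fold higher and 1 in each lower, and without those droplets 3 of 5 and 5 of 7 were higher and 0 lower. Most other genes of the interferon response differed by less than 2-fold. Of 25 listed 16 were tested, and 2 in CD8 and 0 in CD4 cells were at least 2-fold higher and 0 were lower. The median ratios were 1.17 and 1.14, and 1 was higher in CD8 cells without the droplets of other types.

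Genes of the treatment targets were low in these cells. Tnfrsf4, which encodes OX40, was at 1.12 and 0.287 in CD4 cells (ratio 3.91, 1.59 to 12.5), and at 0.128 and 0.0921 in CD8 cells, a ratio of 1.39 (0.446 to 5.11). Pdcd1, which encodes PD-1, was under the level limit, with 73 UMIs in all PDOX T cells and 3 in all untreated T cells, a ratio of 12.1 (3.98 to 59.97). Cd274 (PD-L1) was at 0.258 and 0.320 in all T cells (ratio 0.806, or 1.36 without the droplets of other types), and Tlr9 had 0 UMIs in both. Lag3, another inhibitory receptor also under the level limit, had 97 and 2 UMIs in all T cells, a ratio of 24.1 (6.49 to 202). Of 13 inhibitory receptor and Tox genes listed, only 2 were tested in all T cells. Of these 0 were at least 2-fold higher or lower, with a median ratio of 1.28. In CD8 and CD4 cells 1 was tested, at ratios of 1.17 and 1.18. Of the other costimulatory genes, Icos was 3.83-fold higher (1.78 to 9.81) and Cd226 4.84-fold higher (1.55 to 24.3) in CD4 cells. Of 13 costimulatory genes listed, 4 of 9 tested in CD4 cells were at least 2-fold higher and 0 lower, with a median ratio of 1.80, and in CD8 cells 0 of 7 were higher and 1 lower, with a median of 1.28.

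Some regulatory T cell genes were higher in PDOX CD4 cells, and cytokine receptors gave a mixed picture. Of 10 regulatory T cell genes listed, 4 were tested in CD4 cells and 3 in CD8 cells. In CD4 cells 2 were at least 2-fold higher and 0 lower, with a median ratio of 2.73. In CD8 cells 0 were higher or lower, with a median of 1.28. The list shares Tnfrsf4 with the costimulatory genes. Ikzf2 (Helios) was at 2.098 and 0.573 in CD4 cells (ratio 3.66, 1.92 to 7.83), whereas Foxp3, the defining factor of regulatory cells, had 27 and 4 UMIs there, a ratio of 2.13 (0.742 to 8.37). Il18r1, a chain of the interleukin 18 receptor, was 12.2-fold higher (4.07 to 60) in CD4 and 2.48-fold higher (1.60 to 3.98) in CD8 cells. Il6ra, the interleukin 6 receptor of naive cells, was at 0.711 and 1.84 in CD8 cells (ratio 0.386, 0.276 to 0.536) and at 0.850 and 2.18 in CD4 cells (ratio 0.390, 0.249 to 0.615). In CD8 cells Il4ra (ratio 0.364, 0.232 to 0.565) and Il2rg, the common gamma chain (ratio 0.484, 0.416 to 0.563), were also lower. Of 23 cytokine receptors listed, 1 of 14 tested was higher and 4 lower in CD8 cells and 2 of 13 higher and 2 lower in CD4 cells, with medians of 0.713 and 0.938, and 2 were higher in CD8 cells without the droplets of other types.

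**Figure D2:**
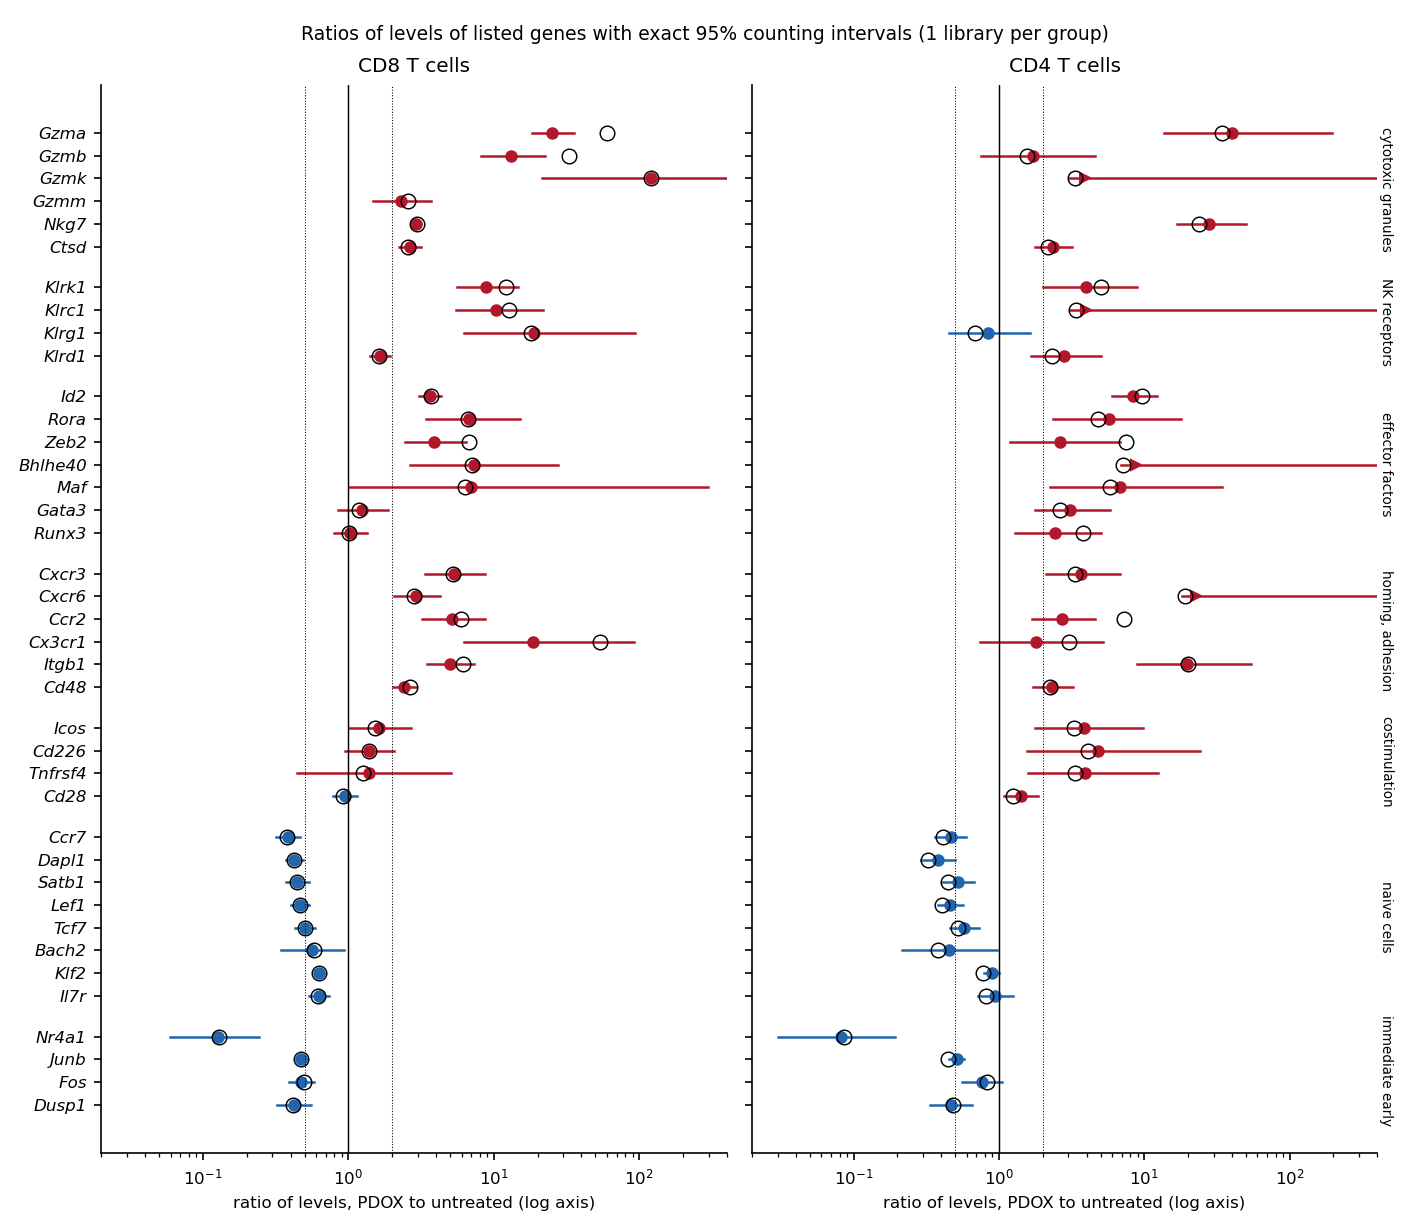
Ratio of the PDOX to the untreated level (horizontal, log axis) for members of the gene groups, in CD8 T cells and CD4 T cells, with exact 95% intervals for counting error. Filled symbols are all cells (red above 1, blue below 1), triangles stand for genes with 0 untreated UMIs set to a floor of 3 UMIs, open circles leave out the droplets of other cell types, and genes with under 10 UMIs in both libraries are not drawn.

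Many genes of naive T cells were lower in PDOX in both lineages. Of 17 naive surface and other genes listed 16 were tested, and 5 in CD8 and 6 in CD4 cells were at least 2-fold lower and 0 were higher, with median ratios of 0.620 and 0.664. Without the droplets of other types 5 of 15 were lower in CD4 cells, with a median of 0.59. Plac8, past 2-fold lower over all CD4 cells, was then at a ratio of 2.42. Ccr7, the lymph node homing receptor, was at 2.24 and 5.82 in CD8 cells (ratio 0.384, 0.319 to 0.461) and at 3.02 and 6.48 in CD4 cells (ratio 0.466, 0.365 to 0.597). Dapl1, a marker of naive cells, was at 4.23 and 9.96 in CD8 cells, a ratio of 0.424 (0.370 to 0.485), and 0.380 (0.290 to 0.499) in CD4 cells.

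The transcription factors of naive and memory cells were lower by similar amounts. Of 15 listed, 12 were tested in each lineage, and 3 in CD8 and 2 in CD4 cells were at least 2-fold lower and 0 higher, with medians of 0.589 and 0.632, and 4 were lower in CD4 cells without the droplets of other types. Lef1 had ratios of 0.467 (0.405 to 0.539) in CD8 and 0.463 (0.382 to 0.562) in CD4 cells, and Tcf7, which encodes TCF1, had 0.505 (0.431 to 0.592) and 0.575 (0.457 to 0.726). Satb1, a chromatin organiser, had 0.445 (0.370 to 0.535) and 0.522 (0.405 to 0.678). Klf2, a factor that keeps naive cells in circulation, was at 17.2 and 27.3 in CD8 cells (ratio 0.630, 0.586 to 0.677) and at 19.9 and 22.3 in CD4 cells (ratio 0.892, 0.794 to 1.004).

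Immediate early genes, which are induced rapidly by receptor stimulation, were lower in PDOX. The list was drawn up for genes that handling of the cells can also change. Whether handling or stimulation differed between the libraries was not tested. Of 20 listed, 16 were tested in CD8 and 17 in CD4 cells, and 5 in each were at least 2-fold lower and 0 higher, with medians of 0.572 and 0.646. In CD4 cells 8 of 17 were lower and 1 higher without the droplets of other types. Nr4a1, an orphan nuclear receptor induced by T cell receptor signals, was at 0.128 and 1.01 in CD8 cells (ratio 0.127, 0.0597 to 0.244) and at 0.127 and 1.55 in CD4 cells (ratio 0.0818, 0.0301 to 0.193). Junb, a subunit of AP-1, was at 10.2 and 21.5 in CD8 cells (ratio 0.475, 0.434 to 0.519), and Dusp1, a phosphatase of MAP kinases, had ratios of 0.422 (0.322 to 0.550) and 0.466 (0.337 to 0.648).

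The cell cycle, glycolysis, class I presentation and survival groups varied, and the survival genes in CD4 cells were not near equal. Of 28 cell cycle genes listed 8 were tested in each lineage, and 2 were higher in CD8 cells (Hmgb2, ratio 2.82, 2.41 to 3.32, and Stmn1, ratio 2.11, 1.46 to 3.10) and 0 in CD4 cells, with medians of 1.42 and 0.917, and 3 and 1 without the droplets of other types. The mitotic genes Birc5 and Ccnb2 had 61 and 51 UMIs in PDOX and 8 and 5 in untreated CD8 cells, in 2.85% and 1.97% of the PDOX cells. Of 16 glycolysis genes listed 10 were tested, and 1, Pgk1, was lower, at ratios of 0.320 (0.211 to 0.479) in CD8 and 0.315 (0.174 to 0.572) in CD4 cells, with medians for the group of 1.15 and 1.13. Of 17 class I antigen presentation genes listed, 0 of 17 tested in CD8 and 2 of 16 in CD4 cells were at least 2-fold higher, with medians of 1.23 and 1.48, the 2 being H2-Q6 (ratio 2.41, 1.56 to 3.91) and H2-Q7 (ratio 2.30, 1.88 to 2.83). Without the droplets of other types 1 of 16 was higher in CD4 cells. Of 16 BCL2 family and survival genes listed, 1 of 8 tested in CD8 and 4 of 9 in CD4 cells were higher and 0 lower, with medians of 0.718 and 1.75. Without the droplets of other types it was 3 of 8 in CD4 cells, with a median of 1.71. The survival gene Bcl2 itself had ratios of 0.564 (0.495 to 0.641) and 0.680 (0.536 to 0.867), and Bcl2a1b of 3.29 (2.02 to 5.60), or 5.40 without the droplets of other types, and 6.47 (2.43 to 24.3).

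The genes with the most extreme ratios were of several kinds. In all T cells, the 10 highest among genes at a level of 1 or more included the effector genes Gzmk, Gzma, Klrc1, Ccl5, Gzmb, Itgb1, Cxcr3 and S100a4. The others were the neutrophil genes S100a8 (ratio 17.2, 11.2 to 27.9) and S100a9 (ratio 5.60, 4.17 to 7.66), of which single droplets held 55.2% and 56.0% of the PDOX UMIs. Without the droplets of other types S100a8 had 12 UMIs in PDOX and 1 in the untreated library, and S100a9 12 and 6. The lowest in all T cells included the monocyte gene Lyz2 (ratio 0.288, 0.273 to 0.304), the class II genes H2-Eb1 (0.243, 0.180 to 0.327) and H2-Ab1 (0.312, 0.245 to 0.396, or 0.573 without those droplets), and Plet1 (0.201, 0.160 to 0.251). The other 6 were Nr4a1 (0.168, 0.120 to 0.232), Pgk1 (0.323, 0.248 to 0.420), Erdr1 (0.325, 0.253 to 0.417), Gm10116 (0.183), Gm10076 (0.241) and Gm10020 (0.317).

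Within the lineages the extremes included single droplets. In CD8 cells Psca (ratio 229), AA467197 (140), Nccrp1 (36.0), Gsto1 (31.9) and Krt13 (109 against 0 UMIs), most of them known from stratified epithelium, came 90.05% to 98.9% from 1 PDOX droplet. Without the droplets of other types Psca, Gsto1 and Krt13 had 4, 58 and 2 UMIs in PDOX. In CD4 cells Upk3bl, Prss22, Calml3, Asprv1, BC100530, Plet1 and Pdzk1ip1 had ratios from 0.00631 to 0.0121 (BC100530, at 0 UMIs in PDOX, against the floor), with 92.0% to 100% of their UMIs in 1 untreated droplet. Without such droplets Plet1 had 2 UMIs in each library, Prss22 had 1 in each, and Upk3bl had 1 in PDOX and 4 in the untreated library. The myeloid and NK genes Fcer1g (ratio 0.0532) and Tyrobp (0.101) in CD8 cells had 95 and 106 untreated UMIs, and 5 and 7 without the droplets of other types. For the 10 high extremes of CD4 cells no PDOX cell held more than 14.1% of a gene's UMIs, the largest share being for Gzma, seen in 10.3% of cells. Cdc25b, a phosphatase of the cell cycle, had 93 UMIs in 72 PDOX cells and 2 in the untreated library (ratio 14.7, 3.95 to 123). Acot7 had 64 and 2 (10.1, 2.68 to 85.1, or 16.9 without the droplets of other types), and Cst7, the protease inhibitor cystatin F, 60 and 2 (9.46, 2.51 to 79.9).

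Markers of other cells moved with the comparison. Summed over the list, B cell markers were at 5.23 in PDOX and 15.9 in untreated T cells, and 1.14 and 3.05 without the droplets of other types. Monocyte and neutrophil markers were at 26.1 and 50.7, and 6.41 and 5.64 without them. Those droplets were picked by UMIs of such markers, so the lower sums follow in part from the rule. In CD4 cells the 2 lists were at 1.18 and 20.1 and at 8.52 and 61.8, and in CD8 cells at 3.75 and 7.28 and at 6.60 and 19.8. All 6 B cell markers tested in all T cells were at least 2-fold lower in PDOX, with a median ratio of 0.316, and of 9 monocyte and neutrophil markers 3 were higher and 3 lower, with a median of 0.596. Over all barcodes hemoglobin genes took 7.99% of the UMIs in the untreated library and 1.70% in PDOX. In the T cells compared they took 0.038% and 0.0088%. The part of these cells in the ratios of T cell genes was not tested beyond the values given without the droplets.

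A set of pseudogene-like transcripts also differed. Of the genes named Gm with a number, 11 of 37 in CD8 and 12 of 34 in CD4 cells were at least 2-fold lower in PDOX and 1 and 0 higher, with medians of 0.724 and 0.645. Gm10116 (ratio 0.174, 0.114 to 0.260), Gm10076 (0.220, 0.177 to 0.271) and Gm10020 (0.284, 0.221 to 0.364) were among the 10 lowest in CD8 cells. In all T cells Gm10076 was at 5.34 in the untreated library, 7.33 with anti-PD-L1, 39.0 with anti-OX40/CpG and 1.29 in PDOX, so its order differs from that of the effector genes. Reads of such transcripts can be shared with near-identical parent genes, which makes their counts uncertain.

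The share of cells with a UMI showed how far these levels were carried by many cells. Each cell was thinned to 750 UMIs, and shallower cells were left out (27 of 324 and 10 of 102 untreated CD8 and CD4 cells, 43 of 456 and 17 of 301 PDOX cells). As background, droplets without CD3 UMIs and with at least 3 UMIs of B cell genes were used, 30 in each library after thinning, with median depths before thinning of 1154 UMIs in PDOX and 1186 in the untreated library, against 1767 and 1642 for CD8 cells and 1777 and 1567 for CD4 cells. Ccl5 was seen in 59.1% of PDOX and 17.2% of untreated CD8 cells (63.4% and 20.4% unthinned), in 33.8% and 4.35% of CD4 cells (41.2% and 6.86%), and in 10% and 13.3% of B cell droplets (11.4% and 12.9%). The untreated values thus lay near or below the Ccl5 background, and the PDOX values above it.

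Other effector genes had little background. Id2 was seen in 39.2% and 15.5% of CD8 cells (50.4% and 23.5% unthinned), 46.5% and 10.9% of CD4 cells (58.8% and 17.6%), and 3.33% of B cell droplets in each library. Nkg7 was seen in 76.8% and 56.2% of CD8 cells (85.5% and 68.5% unthinned), 49.3% and 3.26% of CD4 cells (53.2% and 4.90%), and 3.33% and 0% of B cell droplets. Gzma was seen in 18.4% and 3.37% of CD8 cells (22.4% and 4.63% unthinned), and in 8.80% of PDOX CD4 cells and 0 of 92 untreated CD4 cells, which allows a share of cells with a UMI of up to 3.93% at this depth (10.3% and 2.94% unthinned), with 0 of 30 B cell droplets in either library. Gzma was thus carried by a minority of PDOX cells, while Id2 and Nkg7 were seen in many cells of both PDOX lineages.

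Some genes had different shares in B cell droplets as well, although with only 30 such droplets in each library these shares are uncertain. Ly6a was seen in 29.5% of PDOX and 7.07% of untreated CD8 cells (44.7% and 10.2% unthinned), 47.9% and 18.5% of CD4 cells (67.4% and 28.4%), and 53.3% and 20% of B cell droplets (71.4% and 22.6%). The B cell droplets, by their markers a different cell type, thus had the same order of libraries for Ly6a. Ccr7, which B cells also express, was seen in 15.5% of PDOX and 35.7% of untreated CD8 cells (30.0% and 55.6% unthinned), and in 20% and 40% of B cell droplets (22.9% and 45.2%). Lef1 was seen in 25.2% and 45.5% of CD8 cells and 27.1% and 63.0% of CD4 cells, and in 0% and 3.33% of B cell droplets.

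**Figure D3:**
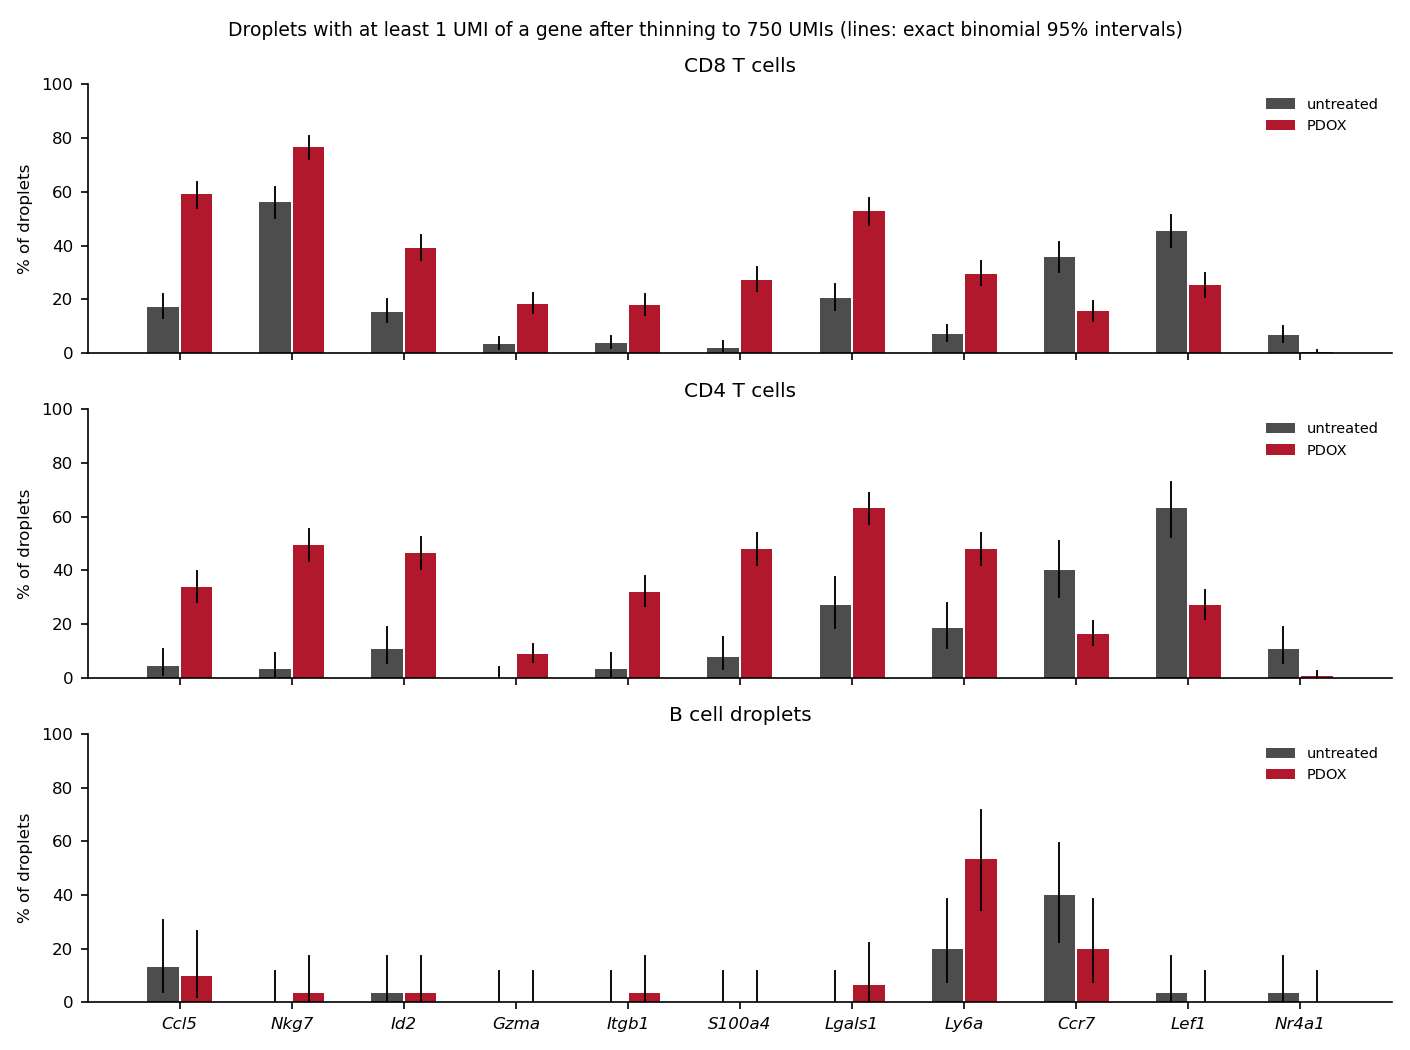
Percent of droplets with at least 1 UMI of each gene (bars, axis from 0) after thinning every droplet to 750 UMIs, in CD8 T cells, CD4 T cells and B cell droplets of the untreated and PDOX libraries, with exact binomial 95% intervals as lines. Effector genes such as Id2 and Nkg7 are higher in PDOX T cells than in the B cell droplets, while Ly6a is higher in PDOX in all 3 panels.

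To see how the cells divided, each cell's UMIs of 6 effector-associated genes (S100a4, S100a6, S100a10, Vim, Emp3 and Cd44) were set against those of 6 naive-associated genes (Ccr7, Satb1, Tcf7, Lef1, Actn1 and Klf2). Cells with more of the former are called effector-leaning, which is a range of a score and not a cell type. In PDOX 55.3% (50.6 to 59.9) of CD8 and 61.5% (55.7 to 67.0) of CD4 cells were effector-leaning, against 10.2% (7.12 to 14.01) and 10.8% (5.51 to 18.5) in the untreated library. The shares were 18.8% and 18.3% with anti-PD-L1 and 28.4% and 35.6% with anti-OX40/CpG. The median difference in UMIs per cell was 2 and −6 in CD8 cells and 6 and −6 in CD4 cells of the PDOX and untreated libraries. Between 6.31% and 13.6% of the cells of these groups lay within 1 UMI of the boundary.

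**Figure D4:**
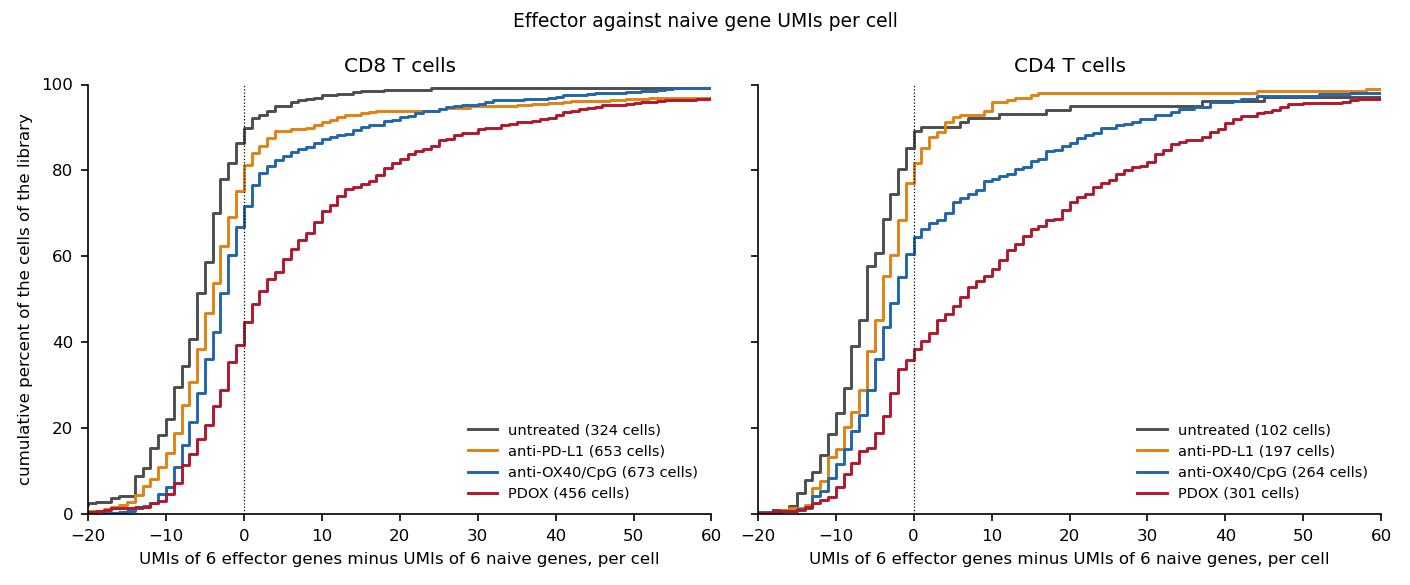
Cumulative percent of cells (vertical) by effector-associated minus naive-associated UMIs per cell (horizontal) in CD8 T cells and CD4 T cells of the 4 libraries, with the boundary at 0 dotted. At the boundary the PDOX curve is the lowest of the 4 in both panels, with 55.3% of CD8 and 61.5% of CD4 cells effector-leaning.

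Within these classes, without the droplets of other types, fewer genes differed among naive-leaning cells than among all cells, least clearly in CD4 cells. The classes were set by effector and naive genes, so this can follow from the selection itself and is no test. In 552 PDOX and 575 untreated naive-leaning T cells, 10 of 3163 genes were at least 2-fold higher and 19 lower. In CD8 cells (179 and 277) it was 27 and 38 of 3116, and in CD4 cells (108 and 87) 152 and 151 of 3257, against 190 and 194 over all CD4 cells. Over all naive-leaning T cells Ly6a was at 5.59 and 1.60, a ratio of 3.50 (2.89 to 4.25), and Ccl5 at 25.5 and 8.05, a ratio of 3.17. Gzma (0.973 and 0.214), Ctla2a, a protease inhibitor of activated T cells (1.77 and 0.372), and Itgb1 (1.09 and 0.383) were also higher. Nr4a1 was at 0.312 and 1.35, a ratio of 0.231, and Pgk1 at 0.412 and 1.33, a ratio of 0.310. Bcl2 and Dapl1, lower over all CD8 cells, were closer within the naive-leaning CD8 cells, at 9.85 and 10.1 for Bcl2 and 9.04 and 11.6 for Dapl1.

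The effector-leaning cells of the 2 libraries also differed, although the untreated ones were few (28 CD8 cells and 7 CD4 cells). In effector-leaning CD8 cells Ccl5 was at 469 in PDOX and 130 in the untreated library, a ratio of 3.60, and Nkg7 at 54.4 and 31.6. Gzma was at 26.9 in PDOX, against 3 UMIs in the untreated cells, and Itgb1 at 4.56 and 1.61. Several genes that differed over all CD8 cells had smaller ratios within this class. Id2 was at 15.0 and 10.9 (ratio 1.38), Cxcr3 at 3.19 and 2.82 (1.13), Cxcr6 at 3.10 and 3.43 (0.903) and Hmgb2 at 14.4 and 11.5 (1.25). The untreated class held only 49607 UMIs, so equal levels cannot be read from these ratios. Of 3181 genes tested in this class, 195 were at least 2-fold higher and 478 lower. The counting interval left out 1 for only 49 and 183 of them. Bcl2 was at 2.62 and 6.45, a ratio of 0.407.

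CD8 and CD4 cells shared part of the genes past 2-fold. Of 2878 genes tested in both, 31 were higher in both, which is 42.5% of the 73 higher in CD8 and 21.1% of the 147 higher in CD4 cells. The number lower in both was 36, or 55.4% of 65 and 31.3% of 115. Another 8 were higher in one lineage and lower in the other (AA467197, Asprv1, Emp1, Gsto1, Krt7, Nccrp1, Prss22 and Prss27), and 0 without the droplets of other types. The 2 lineages came from the same 2 libraries, so they are not independent observations.

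For several effector genes the single treatments, set beside the same untreated library, lay between untreated and PDOX. In CD8 cells Ccl5 was at 23.6 untreated, 58.3 with anti-PD-L1, 202 with anti-OX40/CpG and 306 in PDOX. Gzma was at 0.700, 5.77, 7.83 and 17.7 in the same order, and Klrk1 at 0.368, 1.28, 2.104 and 3.26. Ccr7 ran the other way, at 5.82, 4.30, 3.60 and 2.24. For Id2 (2.87, 4.12, 5.37 and 10.5), Cxcr3 (0.405, 0.558, 0.693 and 2.14) and Hmgb2 (3.50, 5.26, 4.96 and 9.88) the PDOX level stood apart from the other 3. Lag3 was an exception, at 0.0184, 0.122, 0.854 and 0.594, highest with anti-OX40/CpG.

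In CD4 cells the levels with anti-PD-L1 alone were closer to untreated. Ccl5 was at 5.85 untreated, 5.67 with anti-PD-L1, 26.8 with anti-OX40/CpG and 108 in PDOX, and Nkg7 at 0.860, 1.69, 7.55 and 24.0. Cxcr6 was at 0, 0.0613, 1.395 and 3.87, and Id2 at 1.95, 2.24, 7.71 and 16.3. Itgb1 did differ with anti-PD-L1, at 0.344, 2.70, 4.29 and 6.75. Icos (0.401, 0.736, 1.56 and 1.54) and Maf (0.172, 0.307, 1.46 and 1.18) were about as high with anti-OX40/CpG as in PDOX. Nr4a1 was lowest in PDOX in both lineages, at 1.01, 0.619, 0.218 and 0.128 in CD8 and 1.55, 0.859, 0.380 and 0.127 in CD4 cells.

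**Figure D5:**
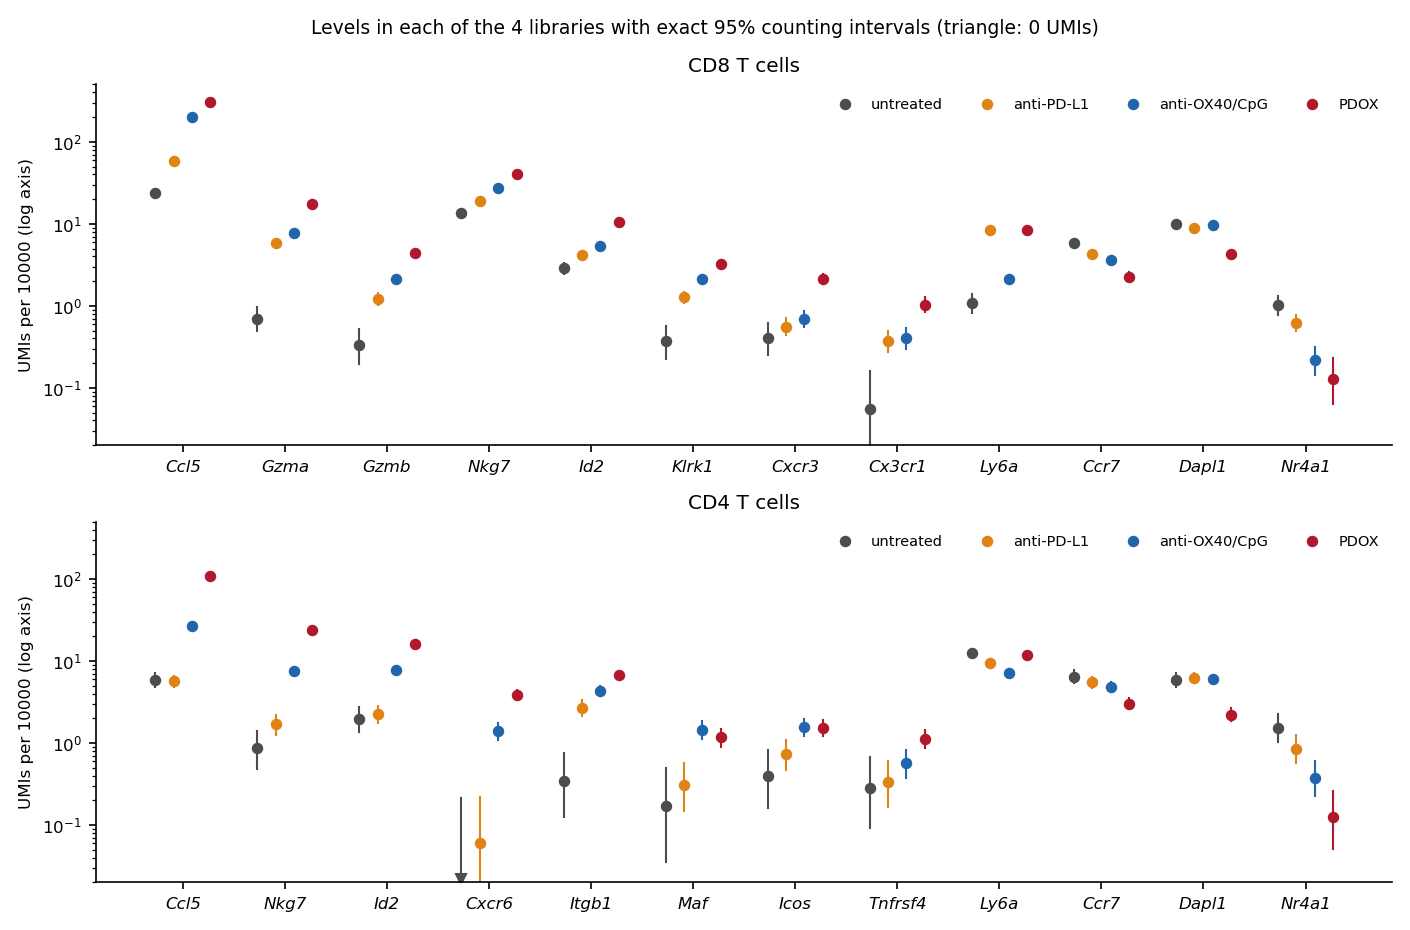
Levels of 12 genes in CD8 T cells and 12 in CD4 T cells of the 4 libraries, in UMIs per 10000 on a log axis, with exact 95% intervals for counting error and triangles where a library had 0 UMIs. Ccl5 goes from 23.6 to 306 in CD8 and from 5.85 to 108 in CD4 cells between untreated and PDOX, and Ccr7 from 5.82 to 2.24 and from 6.48 to 3.02.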

How the data were processed

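Single-cell libraries of blood T cells, 1 for each of 4 treatments (the number of mice behind each is not given in the sources used here), were read as raw UMI counts of 27998 genes, as deposited by the authors, who used the Chromium 3′ chemistry, Cell Ranger, the mm10 genome and, per the submitters' processing notes, Seurat 2. The library labelled OX40 was taken as anti-OX40 with CpG, as the study describes it. The PDOX and untreated libraries (4121932 and 2392650 UMIs) shared 3 barcodes, of which 2 were in T cells of both.

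UMIs were summed over the cells of each population and divided by totals without 13 mitochondrial, 109 ribosomal protein and 8 hemoglobin genes. Genes with a mean of the 2 levels of at least 0.5 were compared, and a ratio of at least 2 or at most 0.5 was counted. A library at 0 was set to a floor of 3 UMIs. Intervals are exact at 95%: Poisson for levels, Clopper-Pearson for shares, and conditional binomial for ratios. UMIs are molecules, but intervals and floors cover counting error only. With 1 library per group no differential test was run and no p-value is given. edgeR 4.0.16 and DESeq2 1.42.0 in R 4.3.3 gave scaling factors only. The other steps used Python 3.11.15, numpy 2.4.6, scipy 1.17.1 and pandas 2.3.3, and were tested on simulated data. No doublet caller was run. As the alternative for doublets, the 5% of cells with most UMIs were left out.

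Named genes were the 10 highest and 10 lowest ratios of each population among genes at a level of at least 1 in the higher library whose interval left out 1, 2 to 4 members of each gene list, and the genes of the treatment targets and of sex. Members of a list named beyond these were chosen after their values were seen. A single listed gene is counted with its list and not reported here by name. The cells compared and the gene lists were chosen with earlier results of these data known. Droplets of other cell types, a set defined after seeing the data, held at least 20 UMIs of 12 squamous epithelial genes, 10 of 38 B cell, myeloid, platelet and basophil genes, or 3 of 7 NK cell genes. Other alternatives were the scaling, the level and fold limits, the CD3 and gene limits, thinning to 750 UMIs and the coreceptor rule.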

Additional observations from a re-analysis of the deposited data

Results flagged for a closer look

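Flagged because their ratio of PDOX to untreated was at least 2-fold higher in CD8 cells and at least 2-fold lower in CD4 cells were 8 genes, and the difference between the lineages was not tested. AA467197 had ratios of 139.7 and 0.1083, Asprv1 of 16.3 and 0.007169, Emp1 of 9.304 and 0.09042, Gsto1 of 31.93 and 0.02232, Krt7 of 15.49 and 0.0332, Nccrp1 of 36.04 and 0.1402, Prss22 of 4.656 and 0.006572, and Prss27 of 6.703 and 0.01802. In CD8 cells single PDOX droplets held 85.9% (Emp1) to 98.0% (Krt7) of their PDOX UMIs, and in CD4 cells single untreated droplets held 95.5% (Asprv1) to 100% (Krt7) of their untreated UMIs. Without the droplets of other cell types Gsto1 had ratios of 0.912 (0.599 to 1.401) and 0.878 (0.437 to 1.91), and Emp1 of 1.52 (0.752 to 3.27) and 2.88 (1.05 to 11.1). The remaining 6 genes were then at 34 UMIs or fewer in each library and lineage.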

How the results depend on the processing

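No paired analysis was possible because each group is 1 library, and for the same reason no replicate could be left out. The counts of genes past 2-fold (higher and lower) in all T cells, CD8 and CD4 cells followed the limits themselves. With a minimum mean level of 0.2 they were 133 and 179, 231 and 308, and 536 and 571, with a minimum of 1 they were 34 and 28, 44 and 37, and 64 and 79, and with no minimum 661 and 3025, 762 and 2300, and 955 and 3223. At 1.5-fold they were 177 and 224, 258 and 351, and 466 and 436, and at 3-fold 27 and 16, 44 and 19, and 47 and 73. With every gene kept in the totals the lower counts were 24, 25 and 81, and over the genes tested as reported (also chosen after seeing the data) CD8 cells had 134 higher and 49 lower. After thinning to 750 UMIs 133 genes were lower in CD8 cells, and 287 were higher and 356 lower in CD4 cells. Leaving out cells with 2 or more UMIs of other cells' markers gave 280 lower genes in CD4 cells. That setting also gave effector-leaning shares of 45.5% and 6.63% in PDOX and untreated CD8 cells and 46.2% and 5.45% in CD4 cells, and a margin of 3 UMIs gave 48.0% and 7.10% in CD8 cells. The order of the 2 libraries held under each.

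Of 235 ratios (genes named by rule, list members past 2-fold and the genes named beyond these), 214 did not turn from one side of 1 to the other from past 2-fold under any alternative, and 21 did. A ratio under 2-fold could not count as turned. Among 2478 values under alternatives, 54 turned, and another 432 left the counting interval of the reported ratio. Of the ratios under 2-fold, 7 changed side: Anxa2, Bcl2, Klrg1 and Ly6a in CD4 cells, Prf1 and Tnfrsf4 in CD8 cells and Cd274 in all T cells. Beyond the leaving out of droplets the cause was not tested. Without the droplets of other cell types (an alternative chosen after seeing the data) S100a9 was at 0.934 and Ifitm3 at 4.804 in all T cells, Asprv1 at 0.393, Gsto1 at 0.912, Ifitm3 at 1.53, Prss22 at 0.315 and Prss27 at 0.629 in CD8 cells, and AA467197 at 3.04, Emp1 at 2.885, Ifitm3 at 5.90, Nccrp1 at 5.37 and Plac8 at 2.42 in CD4 cells. Without cells with 2 or more other-cell UMIs Plac8 was at 1.12 and S100a8 at 0.594 in all T cells, Asprv1 at 0.756, Gsto1 at 0.810, Prss22 at 0.113, Prss27 at 0.945 and Tyrobp at 1.51 in CD8 cells, and AA467197 at 1.54, Emp1 at 1.71, Hspa1a at 3.59 and Nccrp1 at 1.026 in CD4 cells. Without the 5% of T cells with most UMIs Ifitm3 was at 2.42 and Plac8 at 1.002 in all T cells, Asprv1 at 0.424, Ccnb2 at 0.904, Gsto1 at 0.820, Krt7 at 0.339, Prss22 at 0.123 and Prss27 at 0.603 in CD8 cells, and AA467197 at 3.18, Emp1 at 2.903, Ifitm3 at 6.06, Nccrp1 at 5.36, Plac8 at 3.87 and Prss27 at 1.19 in CD4 cells. With at least 2 CD3 UMIs S100a9 was at 0.386 in all T cells, and Asprv1 at 0.448, Gsto1 at 0.933, Prss22 at 0.348 and Prss27 at 0.627 in CD8 cells. A stricter coreceptor rule put Asprv1 at 0.292, Gsto1 at 0.779, Krt7 at 0.146, Prss22 at 0.365 and Prss27 at 0.292 in CD8 cells, and AA467197 at 4.79, Emp1 at 3.28, Gsto1 at 1.006 and Nccrp1 at 3.16 in CD4 cells. Thinning put Prss22 at 0.360 in CD8 and Bak1 at 0.972 in CD4 cells, and weighting each cell equally put Prss22 at 0.704 in CD8 cells.

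Depth limits the CD4 comparison most, with 174409 untreated UMIs in 102 cells, and genes such as Prf1, Ifng, Pdcd1 and Foxp3 were too low to be counted as higher or lower.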
